A study of Mus musculus with 24 samples.

Results

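The 10 genes described here encode parts of bone morphogenetic protein (BMP) signalling and the Id proteins. They are the ligand gene Bmp4, the receptor genes Bmpr1a and Bmpr2, the Smad genes Smad6, Smad7, and Smad9, and the inhibitor of DNA binding genes Id1, Id2, Id3, and Id4. They were taken by gene name from the 56941 genes listed in the expression tables, and all 10 were among the 13315 genes that passed a filter on low counts and were tested. RNA was sequenced from engineered muscle grown from C2C12, a mouse myoblast line that fuses into contracting myotubes. In all 4 groups the cells carried the ChR2::tdTomato genotype, a light-gated channel fused to a red fluorescent protein, and had been cast on micro-grooved fibrin gels and differentiated with IGF-1 (50 ng/ml) in medium containing inactivated horse serum at 10%. The groups were an unstimulated control and cultures paced with light at 1, 4, or 10 Hz (x1Hz, x4Hz, and x10Hz in the labels) for 60 min daily, and each had 6 libraries. All of them derive from 1 cell line, and the promoter driving the channel is not given in the sources used here.

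BMP ligands bind a complex of type I receptors, such as the product of Bmpr1a, and type II receptors, such as the product of Bmpr2. The activated type I receptor phosphorylates Smad1, Smad5, and Smad9, which enter the nucleus with Smad4 and activate target genes, among them the Id genes, Smad6, and Smad7. Id proteins lack a DNA-binding region and pair with E proteins, which are then not free to act with MyoD and the other myogenic factors. In muscle, Id genes are known from proliferating myoblasts, and BMP signalling is known to maintain muscle mass in the adult and to hold back differentiation in precursors.

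The genes lie on 9 chromosomes of the mouse genome (build GRCm39, the build named for these data, with spans from the GENCODE M39 annotation). Id1 spans chr2:152566218-152579544, Id3 spans chr4:135870808-135873066, and Id4 spans chr13:48414558-48419502, all on the plus strand, while Id2 spans chr12:25143798-25147282 on the minus strand. Bmpr2 (chr1:59802544-59918173) and Smad9 (chr3:54662963-54708680) are on the plus strand. Smad6 (chr9:63860341-63929793), Bmpr1a (chr14:34132687-34225379), and Bmp4 (chr14:46620250-46636745) are on the minus strand. For 7 of the 10, all but Smad6, Smad7, and Smad9, an annotated gene overlaps on the opposite strand. The library kit kept strand, but whether the quantification used it is not given in the sources used here.

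Smad proteins bind short DNA motifs, and the stretches that hold them upstream of these genes are printed to show which members carry which letters. The 250 bases before the first RefSeq start listed for each gene were searched on both strands. The motifs were GGCGCC, a GC-rich motif bound by BMP Smads, and CAGAC, the Smad-binding element. The last was CAGCTG, an E-box of the kind bound by MyoD with E proteins. GGCGCC and CAGCTG read the same on both strands, CAGAC reads GTCTG on the other, and no motif overlapped another. The RefSeq promoter table (GRCm38.p6) held 8 of the 10 genes and lacked Id1 and Smad7. Positions are GRCm39, from an exact match of each window to that genome, and the capitals mark the motif.
Id2 GGCGCC, chr12:25146305-25146334, minus strand: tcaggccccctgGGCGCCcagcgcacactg
Id2 CAGCTG, chr12:25146270-25146299, minus strand: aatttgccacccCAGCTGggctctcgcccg
Id3 CAGAC, chr4:135870954-135870982, plus strand: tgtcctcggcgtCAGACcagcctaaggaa
Id3 CAGAC on the other strand, chr4:135871053-135871081, plus strand: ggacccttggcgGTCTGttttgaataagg
Id4 GGCGCC, chr13:48414432-48414461, plus strand: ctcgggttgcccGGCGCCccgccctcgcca
Bmpr1a GGCGCC, chr14:34224684-34224713, minus strand: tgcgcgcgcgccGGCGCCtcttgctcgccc
Bmpr2 GGCGCC, chr1:59803321-59803350, plus strand: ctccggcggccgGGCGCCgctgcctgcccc
Smad9 GGCGCC, chr3:54662940-54662969, plus strand: gcacggccgcctGGCGCCcttccagcgcgg

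GGCGCC was present in 5 of the 8 windows (Id2, Id4, Bmpr1a, Bmpr2, and Smad9), against 9.59% of all 32851 windows of the same length. Those windows include every listed start of a gene and were not matched for GC content, so no enrichment can be read from these shares. CAGAC was present in 1 of 8 (Id3, at 2 places), against 42.2% of all windows, and CAGCTG in 1 of 8 (Id2), against 13.0%. Bmp4 and Smad6 held none of the 3 motifs in this window. All of these stretches except that of Id4 overlapped an exon that GENCODE annotates for the same gene, since other transcripts of these genes start farther upstream. A match of letters is a description and says nothing about binding in these cells.

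The libraries held between 8052369 and 18159144 estimated counts, and the lowest correlation between libraries of a group was 0.965 on the log2 scale. Levels within a gene are given as CPM, counts brought to a common library size with trimmed mean of M-values (TMM) scaling. Levels between genes are given as TPM, which also divides by transcript length. All 8 myotube markers were expressed in every group, and they summed to 10670 to 13791 TPM in control libraries, 7875 to 11480 at 1 Hz, 8122 to 12019 at 4 Hz, and 10272 to 11173 at 10 Hz. The mitochondrial share of counts was 1.37 to 2.72% in control, 1.52 to 4.87% at 1 Hz, 0.545 to 8.90% at 4 Hz, and 1.44 to 2.56% at 10 Hz. The 50 most abundant genes took 14.8 to 16.4% of counts in control and 17.2 to 22.9% at 4 Hz.

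Per length, Id2 and Bmpr1a were the most abundant of the 10 genes in unstimulated cultures, at 69.3 ± 8.0 and 60.1 ± 3.98 TPM (mean ± SD, n = 6). Id1 followed at 40.9 ± 4.36 TPM and Id3 at 23.2 ± 6.69 TPM. Smad7, at 14.8 ± 5.66 TPM, and Bmpr2, at 13.7 ± 1.73 TPM, did not differ beyond their spread. Bmp4 stood at 8.55 ± 2.02 TPM and Smad6 at 1.36 ± 0.318 TPM. Smad9 (0.250 ± 0.0717 TPM) and Id4 (0.208 ± 0.112 TPM) were at the lower end, and their spreads overlapped. The order within a family held across groups. Id2 was above Id1, Bmpr1a above Bmpr2, and Smad7 above Smad6 in 24 of 24 libraries, and Id1 was above Id3 in 23 of 24.

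**Figure D1:**
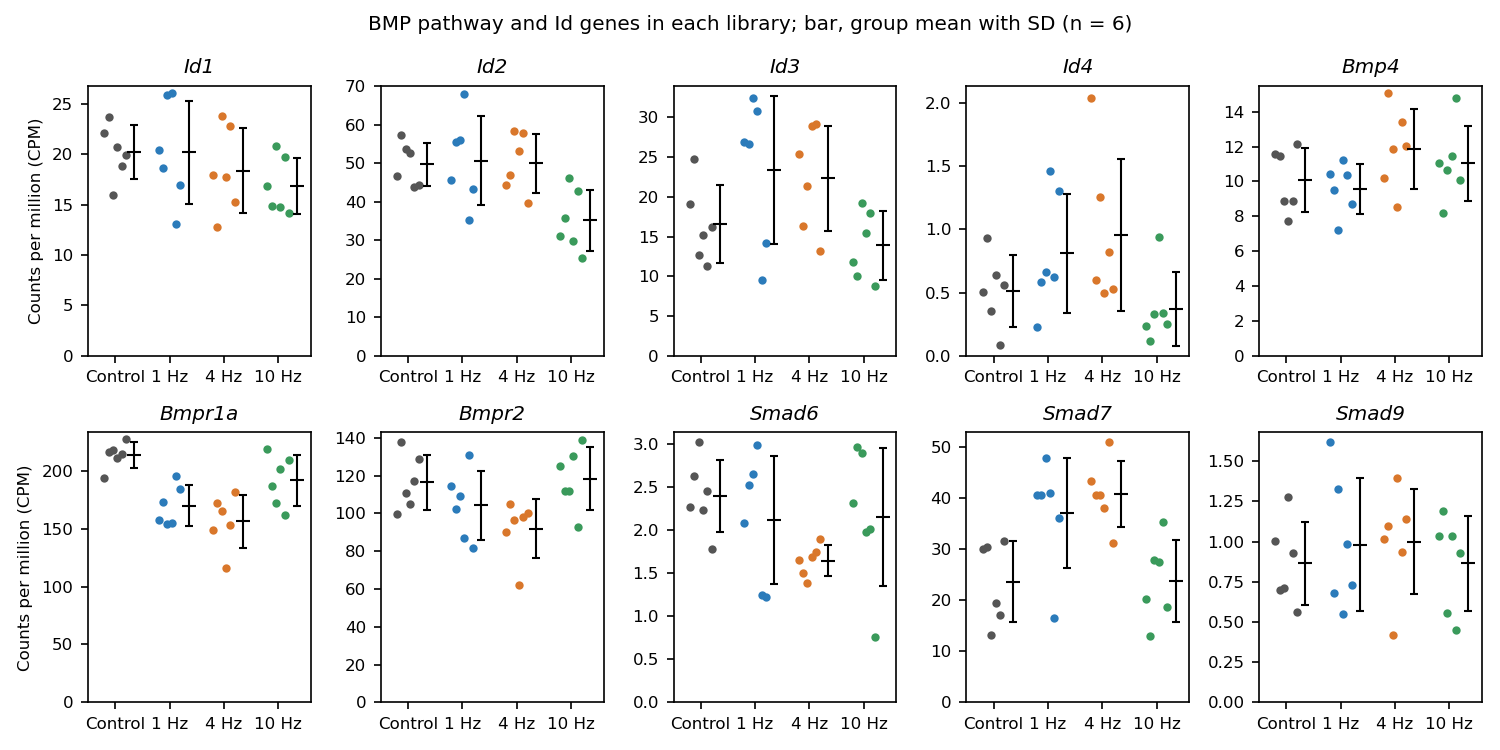
Level of each of the 10 genes in CPM (TMM-scaled) in every library, by group, with the group mean and SD. Bmpr1a at 4 Hz lies below every control library, Smad7 at 1 and 4 Hz lies mostly above control, and at 10 Hz 5 of 6 Id2 libraries lie below every control library.

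Cultures paced at 1 or 4 Hz held less Bmpr1a RNA and more Smad7 RNA than control, cultures at 4 Hz also held less Bmpr2 RNA, and cultures at 10 Hz held less Id2 RNA than those at 1 or 4 Hz. Of the 10 genes, 2 differed between 1 Hz and control (Smad7 higher, Bmpr1a lower) where 37.3% of all tested genes did (19.2% higher and 18.1% lower), at an adjusted p below 0.05. At 4 Hz, 3 differed from control (Smad7 higher, Bmpr1a and Bmpr2 lower), against 51.4% of all genes (27.5% higher and 23.9% lower). At 10 Hz, 0 of the 10 differed from control in edgeR's quasi-likelihood test, against 0.0376% of all genes, while 1 of the 10, Id2, had an unadjusted p below 0.05 and 0 passed with DESeq2. Adjusted p-values are Benjamini-Hochberg values from that test over all 13315 genes, and changes are log2 fold changes with approximate standard errors (SE). The 3 comparisons with control use the same 6 control libraries, so they are not independent of each other. Where a log2 change over 0.5 in either direction was required as well, only Smad7 passed at 1 Hz (14.9% of all genes) and at 4 Hz (25.1%), and none of the 10 passed at 10 Hz. In 9 alternative fits with other scaling, filters, or tests, the Smad7 call held in 4 at 1 Hz and in 7 at 4 Hz. That of Bmpr1a held in all 9 at both frequencies, and each of the 2 Id2 calls held in 7. The median of the 10 log2 changes at 1 Hz was 0.01 beside 0.04 for all tested genes, at 4 Hz 0.12 beside 0.06, and at 10 Hz -0.16 beside 0.01. In bulk RNA, fewer cells of a type and less RNA per cell cannot be told apart.

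**Figure D2:**
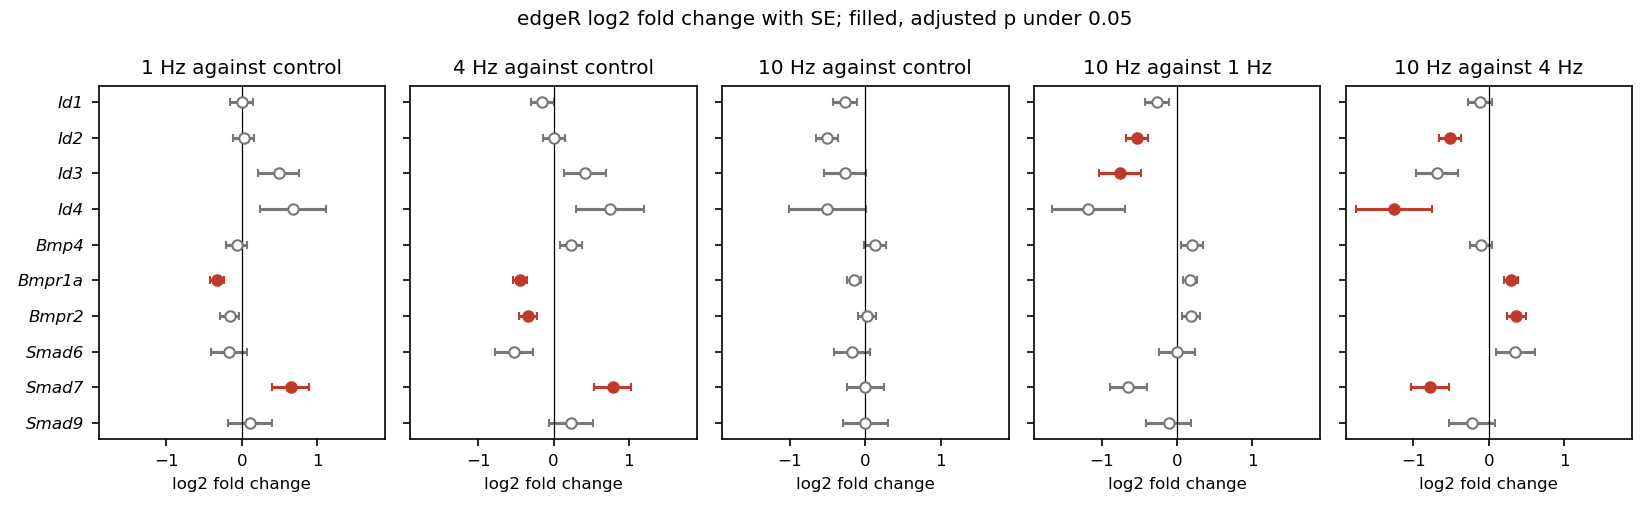
Log2 fold change of each of the 10 genes in 5 comparisons, with bars of 1 SE and filled points where the edgeR adjusted p was below 0.05. Filled points stand for Smad7 and Bmpr1a at 1 Hz, for Smad7, Bmpr1a, and Bmpr2 at 4 Hz, for no gene at 10 Hz, for Id2 and Id3 between 10 and 1 Hz, and for 5 genes between 10 and 4 Hz.

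Bmp4, the secreted ligand of the set, did not pass the test in any comparison. Control libraries ranged from 7.73 to 12.1 CPM (median 10.2), and 1 Hz libraries from 7.19 to 11.2 (median 9.95). The ranges were 8.55 to 15.1 (median 11.9) at 4 Hz and 8.20 to 14.8 (median 10.9) at 10 Hz. All 4 groups overlapped. Its log2 changes from control were -0.07, 0.23, and 0.13 at the 3 rising frequencies, with edgeR adjusted p-values of 0.73, 0.18, and 0.91. Between 4 and 1 Hz it was 0.30, with an unadjusted p of 0.048 and an adjusted p of 0.45 by edgeR.

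Bmpr1a, a type I receptor of BMP ligands, was lower than control at both 1 and 4 Hz. It ranged from 194 to 227 CPM in control (median 215), 154 to 196 at 1 Hz (median 165), 116 to 182 at 4 Hz (median 159), and 162 to 218 at 10 Hz (median 194). All 6 libraries at 4 Hz and 5 of 6 at 1 Hz lay below every control library, while the 10 Hz group overlapped control. Across all tested genes, 14.7% had all 6 libraries at 4 Hz below every control library. The change was -0.33 (SE 0.090, adjusted p = 0.0061 by edgeR) at 1 Hz, or 20.3% lower, and -0.45 (SE 0.090, adjusted p = 2.4e-04 by edgeR) at 4 Hz, or 26.7% lower. At 10 Hz it was -0.15 (edgeR adjusted p = 0.72). The 10 Hz libraries were above the 4 Hz libraries by 0.30 (SE 0.091, adjusted p = 0.0097 by edgeR).

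Bmpr2, the type II receptor that pairs with it, was lower at 4 Hz. Control libraries ranged from 99.8 to 138 CPM (median 114), 1 Hz libraries from 81.6 to 131 (median 106), 4 Hz libraries from 61.9 to 105 (median 97.2), and 10 Hz libraries from 92.6 to 139 (median 118). At 4 Hz, 4 of 6 libraries lay below every control library, and the other groups overlapped control. The change was -0.34 (SE 0.12, adjusted p = 0.022 by edgeR) at 4 Hz, or 21.1% lower, against -0.16 (adjusted p = 0.30) at 1 Hz and 0.02 (adjusted p = 0.99) at 10 Hz. Without control replicate 2 the adjusted p at 4 Hz was 0.061. At 10 Hz Bmpr2 was above 4 Hz by 0.37 (SE 0.12, adjusted p = 0.017 by edgeR).

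Smad7, an inhibitory Smad that is induced by and acts against both BMP and TGF-β receptors, was higher at 1 and 4 Hz. The gene spans chr18:75500374-75529006 on the plus strand (GRCm39). It ranged from 13.2 to 31.6 CPM in control (median 24.8), 16.5 to 47.9 at 1 Hz (median 40.6), 31.3 to 51.0 at 4 Hz (median 40.7), and 13.0 to 35.3 at 10 Hz (median 23.9). In each of the 1 and 4 Hz groups, 5 of 6 libraries lay above every control library, and the 10 Hz and control ranges coincided closely. The rise was 0.65 (SE 0.24, adjusted p = 0.041 by edgeR) at 1 Hz, or 1.56-fold, and 0.78 (SE 0.24, adjusted p = 0.011 by edgeR) at 4 Hz, or 1.72-fold. The change at 10 Hz was 0.00 (adjusted p = 1.00), and Smad7 was 41.8% lower at 10 than at 4 Hz (-0.78, SE 0.25, adjusted p = 0.013 by edgeR). Against 1 Hz the same difference was -0.64, with an edgeR adjusted p of 0.053 that dropped to 0.044 with a stricter filter and 0.023 with DESeq2. It passed only in these 2 of 9 alternative fits, and on the TPM scale the limma adjusted p was 0.32. The call at 1 Hz was lost, with adjusted p-values up to 0.093, on leaving out any 1 of control replicates 3, 4, and 5, of 1 Hz replicates 1, 2, 3, 4, and 6, or 4 Hz replicate 4.

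Smad6, the inhibitory Smad that acts mainly on BMP receptors, did not pass the edgeR test over all 24 libraries in any comparison. Control libraries held 1.79 to 3.02 CPM (median 2.36), 1 Hz libraries 1.22 to 2.99 (median 2.31), 4 Hz libraries 1.39 to 1.9 (median 1.67), and 10 Hz libraries 0.762 to 2.97 (median 2.16). At 4 Hz, 5 of 6 libraries lay below every control library, and the other groups overlapped control. The change at 4 Hz was -0.53 (SE 0.25, adjusted p = 0.078 by edgeR), at 1 Hz -0.17, and at 10 Hz -0.18. At 4 Hz it passed when only the 2 groups were fitted (adjusted p = 0.013 by edgeR) and on the TPM scale. Whether Smad6 and Smad7 differed in their response was not tested.

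Smad9, also called Smad8, a Smad that BMP receptors activate, was near the floor of these libraries, at 0.418 to 1.62 CPM over all 24. The 4 groups overlapped, with medians of 0.820 in control, 0.858 at 1 Hz, 1.06 at 4 Hz, and 0.983 at 10 Hz. Its changes from control were 0.11, 0.23, and 0.00 at 1, 4, and 10 Hz, and it did not pass the edgeR test in any comparison.

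Id2 was lower at 10 Hz than at both lower frequencies. Control libraries ranged from 43.8 to 57.4 CPM (median 49.7), 1 Hz libraries from 35.3 to 67.9 (median 50.6), 4 Hz libraries from 39.5 to 58.3 (median 49.9), and 10 Hz libraries from 25.4 to 46.1 (median 33.4). At 10 Hz, 5 of 6 libraries lay below every control library 4 of 6 below every 4 Hz library, and 3 of 6 below every 1 Hz library. Id2 was 30.8% lower at 10 than at 1 Hz (-0.53, SE 0.14, adjusted p = 0.0085 by edgeR) and 29.8% lower than at 4 Hz (-0.51, SE 0.15, adjusted p = 0.0062 by edgeR). Against control the difference was of the same size (-0.51, SE 0.14), with an unadjusted p of 0.0017 and an adjusted p of 0.22 by edgeR. The adjusted values run over all genes of each comparison, and 1074 genes had an unadjusted p below 0.05 between 10 Hz and control, against 5401 between 10 and 1 Hz and 7106 between 10 and 4 Hz. At 1 and 4 Hz the change from control was 0.03 and 0.00 (adjusted p = 0.90 and 0.99). On the log2(TPM + 1) scale with limma, Id2 was lower at 10 than at 1 Hz by 0.32 and than at 4 Hz by 0.21, with adjusted p-values of 0.086 and 0.22.

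In the comparison of 10 with 1 Hz, 2 of the 10 genes passed (Id2 and Id3, both lower at 10 Hz), against 27.9% of all tested genes (14.8% higher and 13.1% lower). Between 10 and 4 Hz 5 passed (Bmpr1a and Bmpr2 higher, Id2, Id4, and Smad7 lower at 10 Hz), against 46.3% of all genes (21.9% higher and 24.4% lower). Between 4 and 1 Hz 0 passed in edgeR, against 0% of all genes, while 1465 genes, 1 of them among the 10 (Bmp4), had an unadjusted p below 0.05, and 0 of the 10 passed with DESeq2. With the minimum of 0.5, Id2 and Id3 passed between 10 and 1 Hz (10.8% of all genes), and Id2, Id4, and Smad7 between 10 and 4 Hz (21.2%). The median difference of the 10 genes was -0.19 between 10 and 1 Hz and -0.17 between 10 and 4 Hz, against -0.04 and -0.05 over all genes.

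Id3 varied more between libraries of a group than Id1 or Id2. It ranged from 11.2 to 24.8 CPM in control (median 15.6), 9.57 to 32.4 at 1 Hz (median 26.7), 13.2 to 29.1 at 4 Hz (median 23.3), and 8.80 to 19.2 at 10 Hz (median 13.6). All groups overlapped control, and 4 of 6 libraries at 1 Hz lay above every control library. The change was 0.49 (SE 0.27, adjusted p = 0.16 by edgeR) at 1 Hz, 0.42 (SE 0.28, adjusted p = 0.21) at 4 Hz, and -0.27 (SE 0.28, adjusted p = 0.91) at 10 Hz. It was 40.8% lower at 10 than at 1 Hz (-0.76, SE 0.28, adjusted p = 0.047 by edgeR), and -0.69 (SE 0.28, adjusted p = 0.051) separated 10 from 4 Hz. The latter passed in 5 of 9 alternative fits, with adjusted p-values down to 0.028. The call between 10 and 1 Hz was lost in 14 of the 24 fits that left out 1 library, with adjusted p-values up to 0.13. Without 1 Hz replicate 5, the lowest Id3 library of its group, the rise at 1 Hz was 0.65 with an edgeR adjusted p of 0.037.

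Id1 did not pass the test in any comparison. Its range was 16.0 to 23.7 CPM in control (median 20.3), 13.1 to 26.1 at 1 Hz (median 19.6), 12.8 to 23.8 at 4 Hz (median 17.8), and 14.2 to 20.8 at 10 Hz (median 15.9), and the groups overlapped. The change was 0.00, -0.15, and -0.27 at 1, 4, and 10 Hz, with edgeR adjusted p-values of 0.99, 0.44, and 0.71. Id4 was carried by 1 to 24 counts per library, so its values hold large counting error. Its medians were 0.533 CPM in control, 0.645 at 1 Hz, 0.708 at 4 Hz, and 0.294 at 10 Hz, and its full range was 0.0845 to 2.03 CPM. It was lower at 10 than at 4 Hz (-1.25, SE 0.50, adjusted p = 0.042 by edgeR), with 5 of 6 libraries at 10 Hz below every 4 Hz library. That call was lost in 9 of the 24 fits that left out 1 library, with adjusted p-values up to 0.16, and with no filter on low counts (0.062).

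The scale of normalization moved the values at 1 and 4 Hz. On the log2(TPM + 1) scale the median change of all genes was -0.14 at 1 Hz and -0.21 at 4 Hz, against 0.04 and 0.06 with TMM. Measured against that median, the 4 Hz changes on the TPM and count scales were -0.60 and -0.51 for Bmpr1a, -0.41 and -0.40 for Bmpr2, and 0.74 and 0.72 for Smad7. At 4 Hz on the TPM scale with limma, 41.7% of all genes tested passed. Those of the 10 that passed were Id1 (-0.47, adjusted p = 0.0066), Id2 (-0.32, adjusted p = 0.049), Bmpr1a, Bmpr2, and Smad6 (-0.45, adjusted p = 0.016). Smad7 (0.53, adjusted p = 0.10) did not, nor did its difference between 10 and 4 Hz (-0.55, adjusted p = 0.095). Relative to the median of all genes, Id1 and Id2 stood at -0.26 and -0.11 there, close to the -0.21 and -0.06 of the count scale. The value of Smad6 depended on the constant added to its low TPM. With log2(TPM + 0.1) its change at 4 Hz was -0.83, lower than the -0.53 of the count scale.

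**Figure D3:**
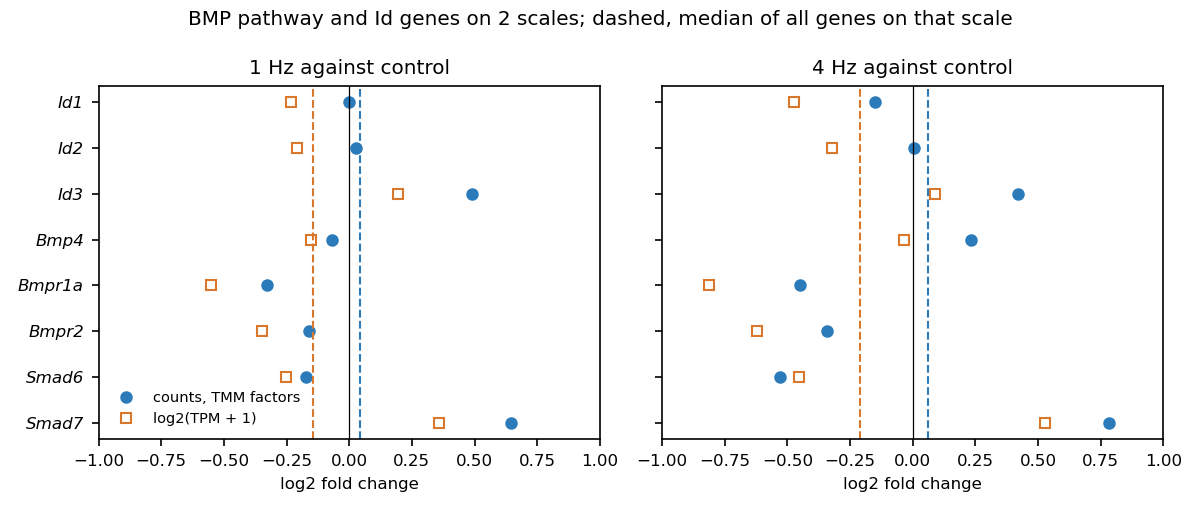
Log2 change from control at 1 and 4 Hz on the TMM count scale (filled circles) and the log2(TPM + 1) scale (open squares) for the 8 genes tested on both, with dashed lines at the median of all genes on each scale. Apart from Smad6 at 4 Hz, every gene lies lower on the TPM scale, where the median of all genes is -0.14 at 1 Hz and -0.21 at 4 Hz.

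Other genes of the pathway were called at about the rate of all tested genes. Outside the 10 genes, 58 further genes were listed as ligands, receptors, Smads, inhibitors, regulators, or targets, and 40 of them were tested. At 1 Hz, 6 were higher and 10 lower than control, and at 4 Hz 10 were higher and 13 lower, where 37.3% and 51.4% of all tested genes were called. At 10 Hz 0 of 40 passed in edgeR, against 0.0376% of all genes. In the same test 4 had an unadjusted p below 0.05, as had 1074 of all 13315 genes. With DESeq2, 1 of the 40 (Fstl3) passed at 10 Hz, and the share over all genes is not given here. Against 1 Hz, 9 were higher and 4 lower at 10 Hz, and against 4 Hz 13 were higher and 9 lower. In these comparisons 27.9% and 46.3% of all tested genes were called.

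Among the other ligands, 2 of 12 were tested, and both missed the threshold. Bmp6 changed by 0.58 at 1 Hz and 0.41 at 4 Hz (edgeR adjusted p = 0.12 and 0.28), and Gdf5 by -0.32 and -0.16 (0.084 and 0.39). Bmp2, Bmp8b, and Gdf2 had 0 counts in 24 libraries, which allows up to 0.0113 CPM over the whole set. Among 9 receptors and co-receptors, 1 rose and 4 fell at 1 Hz, and 4 rose and 4 fell at 4 Hz, beside 37.3% and 51.4% called over all genes. Bmpr1b, the other BMP type I receptor of its class, fell from 6.10 CPM in control to 3.04 at 1 Hz and 2.56 at 4 Hz (-1.0 and -1.26, edgeR adjusted p = 1.3e-04 and 6.9e-06). The activin type II receptor gene Acvr2a fell by 0.43 and 0.69 (adjusted p = 0.0098 and 9.3e-05). Rgma, a membrane co-receptor for BMPs, fell by 0.71 and 0.50 (adjusted p = 5.0e-05 and 0.0012). Acvrl1, a type I receptor best known from endothelium, was higher at 4 Hz by 0.84 from a low level (adjusted p = 8.8e-04), and by 0.40 on the TPM scale (limma adjusted p = 0.096).

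Of 12 extracellular inhibitors and modulators tested, 2 rose and 2 fell at 1 Hz, and 3 rose and 2 fell at 4 Hz, beside the same 37.3% and 51.4% of all genes. Bmper, which binds BMPs outside the cell, fell from 19.9 CPM to 8.53 at 1 Hz and 6.87 at 4 Hz (-1.23 and -1.54, edgeR adjusted p = 4.4e-08 and 1.2e-09). Grem1, a secreted antagonist of BMP ligands such as BMP4, fell from 283 CPM to 156 and 133 (-0.86 and -1.09, adjusted p = 0.0026 and 1.8e-04). Fstl3, which binds activins and myostatin, was higher on the count scale by 0.31 and 0.42 (adjusted p = 2.0e-04 and 2.6e-06), but by 0.14 and 0.10 on the TPM scale (limma adjusted p = 0.34 and 0.46). Chrd, the antagonist chordin, was higher at 4 Hz by 0.46 (adjusted p = 0.0012; 0.083 on the TPM scale, limma adjusted p = 0.62) and stood at 0.12 at 1 Hz (adjusted p = 0.42).

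Inside the cell, Smad1, the main BMP-activated Smad, was higher by 0.27 at 1 Hz and 0.24 at 4 Hz on the count scale (edgeR adjusted p = 0.0091 and 0.016), but on the TPM scale by 0.050 and -0.10 (limma adjusted p = 0.81 and 0.55). Smad4, the shared partner, fell by 0.20 at 4 Hz (adjusted p = 0.046), a call that held in 5 of 9 alternatives and in 13 of 24 fits that left out 1 library. Among 6 intracellular regulators, 1 rose and 3 fell at 1 Hz, and 1 rose and 4 fell at 4 Hz. Over all tested genes, 37.3% were called at 1 Hz (18.1% lower) and 51.4% at 4 Hz (23.9% lower). Smurf2, a ubiquitin ligase that Smad7 brings to the receptors, fell by 0.52 and 0.67 (adjusted p = 6.8e-04 and 2.5e-05). Lemd3, an inner nuclear membrane protein that binds Smads, fell by 0.37 and 0.68 (adjusted p = 0.018 and 8.1e-05), and the Smad co-repressor gene Ski by 0.34 and 0.35 (adjusted p = 0.0053 and 0.0027). Tob1, a repressor of BMP Smads, was higher by 0.35 and 0.30 on the count scale (adjusted p = 0.0058 and 0.011), but by 0.13 and -0.034 on the TPM scale (limma adjusted p = 0.37 and 0.82).

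Of 8 further target genes tested, 1 rose and 1 fell at 1 Hz, and 1 rose and 2 fell at 4 Hz. Over all tested genes, 37.3% and 51.4% were called. Atoh8 fell from 2.64 CPM to 1.08 and 0.722 (-1.35 and -1.89, edgeR adjusted p = 1.4e-04 and 3.4e-06). The homeobox gene Msx1 rose by 0.63 and 0.70 (adjusted p = 0.0022 and 5.6e-04), and Dlx3 fell by 0.61 at 4 Hz (adjusted p = 5.3e-04). Among genes known as BMP targets, Smad7 and Msx1 rose and Atoh8 fell at both frequencies in edgeR. The call of Smad7 at 1 Hz held in 4 of 9 alternative fits. Id1, Id2, Id3, Id4, and Smad6 did not pass in edgeR at either frequency.

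**Figure D4:**
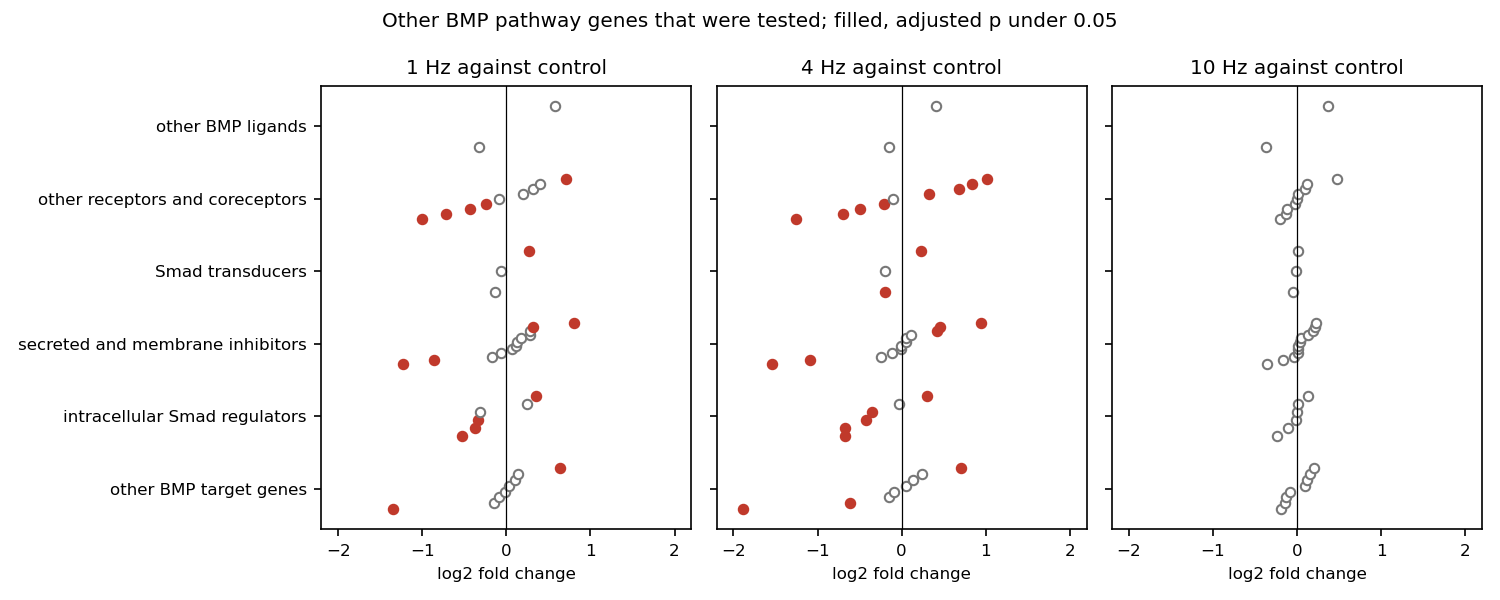
Log2 change from control at 1, 4, and 10 Hz for the tested genes of 6 pathway lists, by role, with filled points where the edgeR adjusted p was below 0.05. Points past the threshold lie on both sides of 0 at 1 and 4 Hz, and none is filled at 10 Hz.

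The proteins that Id proteins bind or hold from DNA were read as a list of 7 E proteins and myogenic factors. At 1 Hz 2 rose and 3 fell, and at 4 Hz 1 rose and 4 fell, beside 37.3% and 51.4% called over all tested genes. The myogenic factor genes Myod1 (-1.42 at 1 Hz and -1.75 at 4 Hz, edgeR adjusted p = 2.5e-11 and 1.9e-13) and Myog (-1.34 and -1.47, adjusted p = 1.2e-12 and 1.5e-13) fell, and Myf5, which is expressed in precursors, rose (1.32 and 1.17). Tcf12, an E protein, fell by 0.34 at 4 Hz (edgeR adjusted p = 0.0034).

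Within a group, the 3 abundant Id genes varied together from library to library. After the group mean of log2 CPM was removed, Id1 and Id3 correlated over the 24 libraries with Pearson's r = 0.81 and Spearman's rho = 0.81 (permutation p = 5.0e-05, adjusted 7.0e-04 over 28 pairs). Id1 and Id2 gave r = 0.75 and rho = 0.75 (permutation p = 2.2e-04, adjusted 0.0011), and Id2 and Id3 gave r = 0.75 and rho = 0.76 (permutation p = 2.4e-04, adjusted 0.0011). Without the 2 libraries farthest from the median, r was 0.75, 0.73, and 0.66 in these pairs. Id1 and Id3 gave 0.84 in control, 0.93 at 1 Hz, 0.63 at 4 Hz, and 0.81 at 10 Hz, while Id1 and Id2 gave 0.15, 0.89, 0.75, and 0.87. On the TPM scale the pooled r was 0.82 for Id1 and Id3, 0.64 for Id1 and Id2, and 0.72 for Id2 and Id3.

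Smad7 varied with Id3 in the same direction, and the receptor Bmpr1a in the opposite direction. Id1 and Id2 gave r of the same signs and smaller size with both. Whether these correlations differed from those of Id3 was not tested. Id3 and Smad7 gave r = 0.81 and rho = 0.79 (permutation p = 1e-05, the smallest that the permutations can give, adjusted 2.8e-04), and r = 0.72 without the 2 farthest libraries. With Smad7, Id1 gave r = 0.68 (adjusted permutation p = 9.3e-04) and Id2 r = 0.47 (0.092), which was 0.31 without the 2 farthest libraries. By group, Id3 and Smad7 gave 0.80 in control, 0.89 at 1 Hz, 0.72 at 4 Hz, and 0.86 at 10 Hz. On the TPM scale their pooled r was lower, at 0.64. Id3 and Bmpr1a gave r = -0.70 and rho = -0.73 (permutation p = 1.7e-04, adjusted 0.0011), and r = -0.62 without the 2 farthest. With Bmpr1a, Id2 gave r = -0.60 (adjusted permutation p = 0.015) and Id1 r = -0.53 (0.051). Bmpr1a and Bmpr2 gave r = 0.71 and rho = 0.63 (permutation p = 0.0015, adjusted 0.0061), which dropped to 0.48 without the 2 farthest libraries. 1 Hz replicate 5 was the lowest library of its group in Id1, Id2, Id3, and Smad7 and the highest in Bmpr1a and Bmpr2. Without it, r was 0.74 for Id1 and Id3, 0.68 for Id1 and Id2, 0.67 for Id2 and Id3, and 0.72 for Id3 and Smad7. Many other genes shared this pattern: among the 13314 other genes, Smad7 ranked 79 by correlation with Id3, and Id3 ranked 10 by correlation with Id1. Counted from the highest r in the same way, Bmpr1a ranked 12955 with Id3, and Bmpr2 ranked 562 with Bmpr1a.

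**Figure D5:**
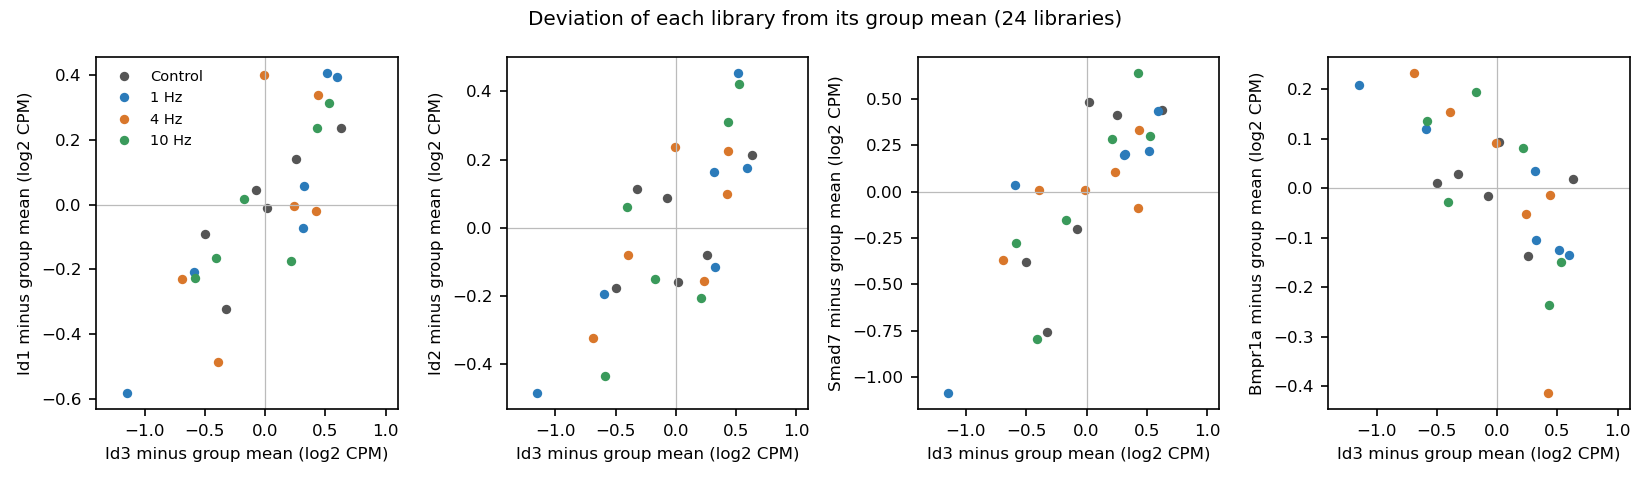
Deviation of each library from its group mean (log2 CPM) for Id3 on the horizontal axis and for Id1, Id2, Smad7, and Bmpr1a on the vertical axes, coloured by group, 24 libraries in each panel. Id1, Id2, and Smad7 rise with Id3 (r = 0.81, 0.75, and 0.81), and Bmpr1a falls (r = -0.70).

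Across all 24 libraries, with 11739 genes ranked by Pearson's r of log2 CPM, the genes most like Id3 were Egr1 (r = 0.92), Rgs16 (0.92), and Fos (0.92), of which Egr1 and Fos are immediate early transcription factors. For Id1 they were Gm14636 (0.74), Id3 (0.73), and Id2 (0.72), so 2 of its 3 nearest genes were other Id genes. For Id2 they were Car3 (0.80), 9530053A07Rik (0.77), and Spc25 (0.77), and for Bmp4 they were Foxc1 (0.65), Olfml2a (0.64), and Inpp4b (0.63). For Smad6 they were Nusap1 (0.73), H1f0 (0.71), and Ccnb1 (0.69). These correlations describe libraries that share a scaling and a culture format.

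Some cell type markers also passed the threshold in these comparisons. Over all tested genes, 37.3% passed at 1 Hz (19.2% higher and 18.1% lower) and 51.4% at 4 Hz (27.5% higher and 23.9% lower). Between 10 and 4 Hz 46.3% passed (21.9% higher and 24.4% lower), and between 10 and 1 Hz 27.9% (14.8% higher and 13.1% lower). Of 4 fibroblast markers, 2 (Pdgfra and Dcn) were higher at both 1 and 4 Hz in edgeR, and the list summed to 120 to 177 TPM in control, 117 to 256 at 1 Hz, 140 to 225 at 4 Hz, and 146 to 176 at 10 Hz. Of 4 satellite and reserve cell markers, 2 (Myf5 and Cd34) were higher and 1 (Pax7) was lower at both frequencies, with list sums of 55.4 to 85.0 TPM in control, 60.2 to 108 at 1 Hz, 61.8 to 90.0 at 4 Hz, and 69.8 to 90.6 at 10 Hz. Between 10 and 4 Hz, 5 of 8 myotube markers (Ckm, Acta1, Myh8, Tnnt3, and Actn2), 2 of 5 tested osteoblast markers (Alpl and Bglap2), Pdgfra, Myf5, and Cd68 were lower at 10 Hz and Pax7 was higher. Between 10 and 1 Hz, Myf5 and Alpl were lower and Pax7 higher at 10 Hz. In that comparison 0 of 8 myotube markers passed the threshold in edgeR and 3 had an unadjusted p below 0.05, as had 5401 of all 13315 genes. The part of these cell type markers in the changes of the receptor, Smad, and Id genes was not tested. The 4 endothelial markers summed to at most 0.961 TPM and the 4 adipocyte markers to at most 1.04 TPM in any library. Osteoblast markers, of interest because BMPs can turn C2C12 cells towards bone, summed to 179 to 214 TPM in control, 153 to 195 at 1 Hz, 175 to 224 at 4 Hz, and 152 to 224 at 10 Hz, and 5 of 8 were tested. Of these, 1 was higher at 4 Hz and 0 at 1 Hz in edgeR, while Dlx5 had 0 counts, Ibsp 1 count, and Sp7 3 counts over all 24 libraries. The leukocyte list summed to 55.1 to 102 TPM, nearly all from Cd68, with 2 counts of Ptprc and 1 of Adgre1 over all libraries.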

How the data were processed

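RNA from 24 mouse cultures (6 unstimulated, 6 each at 1, 4, and 10 Hz) was sequenced by the authors from poly(A) libraries of a directional kit, with ribodepletion for low inputs, which were not named. Per the labels and methods, reads were quantified with nf-core/rnaseq and Salmon on GRCm39, and the authors deposited estimated counts and TPM per gene. The submitters' processing notes also name STAR, BWA 0.7.12-r1039, and bedtools 2.25.0, with no role. The authors tested with DESeq2.

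Here the deposited estimated counts (6.15% were not whole) were rounded, filtered with filterByExpr (minimum 10 counts in a library, 15 in total), scaled by TMM, and tested with edgeR 4.0.16 (R 4.3.3), robust quasi-likelihood, 1 fit of 24 libraries, Benjamini-Hochberg over all genes, threshold 0.05. The SE was the change divided by the root of F. Depth was 8052369 to 18159144 counts, and counting error limits Id4, Smad9, and Smad6. The 4 groups were compared in 6 pairs. Correlations used 100000 permutations within groups. Scripts were tested on simulated data. The deposited TPM values were tested as log2(TPM + 1) and log2(TPM + 0.1) with limma 3.58.1 on genes of at least 1 TPM in 6 libraries. Other alternatives were RLE and upper-quartile scaling, no filter, a stricter filter, 2-group fits, a replicate block, DESeq2 1.42.0, a fold minimum of 0.5, and each library left out. The 10 genes and all lists were chosen with earlier results of these data known. Named were the 10 genes, up to 4 genes per list with the smallest p against control among those past 0.05, the 3 genes of highest r to Id1, Id2, Id3, Bmp4, and Smad6, and marker lists as levels. Bmp6, Gdf5, and the 3 ligands at 0 were named, and the correlations on TPM and without 1 Hz replicate 5 and the alternatives for pathway genes outside the 10 were added, after the data were seen. Of the identifiers, 98.9% matched GENCODE M39. P-values measure the spread between the 6 cultures of a group, which the study calls biological replicates.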

Additional observations from a re-analysis of the deposited data

Results flagged for a closer look

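Each of the 10 genes was checked in each of the 4 groups for a library far from the other 5 by Dixon's ratio, the gap to the nearest library over the range of the group. Of these 40 checks, 3 exceeded the critical value for 6 libraries, and chance alone gives about 1 in 20. Id4 at 10 Hz replicate 4 was at 0.941 CPM, with the others at 0.119 to 0.335 (ratio 0.736). Bmpr2 at 4 Hz replicate 4 was at 61.9 CPM, with the others at 90.2 to 105 (ratio 0.654). Smad7 at 1 Hz replicate 5 was at 16.5 CPM, with the others at 36.2 to 47.9 (ratio 0.626). Without 1 Hz replicate 5, the rise of Smad7 at 1 Hz was 0.80, with an edgeR adjusted p of 0.0052.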

How the results depend on the processing

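Bmpr1a (1 Hz, 4 Hz, and 10 against 4 Hz), Smad7 (4 Hz and 10 against 4 Hz), Id2 (10 against 1 and 4 Hz), and Bmpr2 (10 against 4 Hz) stayed past the threshold without any 1 library. With 1 library left out, the count of the 10 genes past it was 1 to 3 at 1 Hz, 2 to 4 at 4 Hz, 0 at 10 Hz, 0 between 4 and 1 Hz, 1 to 3 between 10 and 1 Hz, and 4 to 6 between 10 and 4 Hz. For the 40 other pathway genes it was 15 to 18 at 1 Hz, 20 to 24 at 4 Hz, and 0 at 10 Hz. Id4 and Smad9, at few counts, have wide errors, and neither passed the filter for the TPM tests.

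At 1 Hz the count of the 10 was 1 with no filter, with only the 2 groups, on both TPM scales, and with the fold minimum. At 4 Hz it was 5 on both TPM scales, 4 with only the 2 groups (Smad6 added), and 1 with the fold minimum. Between 10 and 1 Hz it was 1 with no filter or only the 2 groups, 3 with the stricter filter or DESeq2 (Smad7 added), and 0 on both TPM scales, and between 10 and 4 Hz it was 6 with upper-quartile scaling, the block, or DESeq2 (Id3 added), 4 with no filter (Id4 lost), 2 on both TPM scales, and 3 with the fold minimum. On log2(TPM + 1), 25.4% of all genes tested passed at 1 Hz, 41.7% at 4 Hz, 17.7% between 10 and 1 Hz, and 38.3% between 10 and 4 Hz. Of the 40 other pathway genes, 9 at 1 Hz and 13 at 4 Hz passed with the fold minimum, and 1 (Fstl3) passed at 10 Hz with DESeq2. The call of Smad7 at 1 Hz was lost with no filter, with only the 2 groups, with the block, and on both TPM scales (adjusted p 0.062 to 0.33), as was that of Id3 between 10 and 1 Hz (0.059 to 0.28). The cause of these differences was not tested, beyond the fewer genes that a fold minimum leaves.

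Replicate numbers did not pair the libraries: over 36 same-numbered pairs the correlation of deviations ran from -0.33 to 0.24, and 0 libraries correlated best with their own number. With the replicate number as a block, 1 of the 10 passed at 1 Hz and 1 between 10 and 1 Hz, and the change of Smad9 at 10 Hz was -0.0030.

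Changes that took the other sign were near 0 or belonged to the TPM scale. At 1 Hz, Id1 was 0.019 with upper-quartile scaling, Id2 was -0.010 with no filter and -0.208 and -0.212 on log2(TPM + 1) and log2(TPM + 0.1), and Chrd was -0.13 and -0.15 on these. At 4 Hz, Id2 was -0.023 with RLE, -0.042 with no filter, -0.0013 with the stricter filter, -0.024 with only the 2 groups, -0.021 with DESeq2, and -0.32 and -0.33 on the TPM scales, where Bmp4 was -0.033 and -0.039, Smad1 -0.10 and -0.11, and Tob1 -0.034 and -0.035. At 10 Hz, Bmpr2 was -0.00088 and -0.0020 on the TPM scales. Smad7 there was -0.0019 with RLE, -0.0080 with no filter, -0.00071 with the stricter filter, -0.0025 with only the 2 groups, and -0.022 and -0.022 on the TPM scales. Smad9 was -0.0018 with RLE, -0.0054 with upper-quartile scaling, -0.0071 with no filter, -0.0014 with only the 2 groups, and -0.0018 with DESeq2. Between 10 and 1 Hz, Smad6 was 0.0059 with RLE, 0.023 with no filter, 0.00025 with only the 2 groups, 0.0043 with DESeq2, and 0.097 and 0.16 on the TPM scales. Between 10 and 4 Hz on these scales, Id1 was 0.20 and 0.21 and Bmp4 0.22 and 0.24.

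Without 1 library, changes that crossed 0 ranged at 1 Hz from -0.12 to 0.096 for Id1, -0.11 to 0.11 for Id2, and -0.073 to 0.25 for Smad9. At 4 Hz that of Id2 ranged from -0.077 to 0.064. At 10 Hz they ranged from -0.025 to 0.085 for Bmpr2, -0.28 to 0.012 for Smad6, -0.14 to 0.13 for Smad7, and -0.085 to 0.16 for Smad9. Between 4 and 1 Hz they ranged from -0.11 to 0.079 for Id2, -0.23 to 0.049 for Id3, -0.28 to 0.35 for Id4, -0.016 to 0.22 for Smad7, and -0.038 to 0.30 for Smad9. Between 10 and 1 Hz they ranged from -0.12 to 0.19 for Smad6 and -0.24 to 0.075 for Smad9.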
